A study of Mus musculus with 3 samples.

Results

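The endoplasmic reticulum (ER) folding and integrated stress response genes described here are 40 named genes, and all 40 were listed in a count table of 21782 genes. They were chosen by name for their known function, not by a measured value, but with earlier results of these data known. They comprise ER chaperones, enzymes that discard misfolded proteins, the sensors of the unfolded protein response, the transcription factor Atf4 with genes it is known to act on, amino acid supply genes and parts of the secretory route. RNA-seq was performed on 3 libraries of polyA-selected RNA, 1 from each of 3 WT clones of mouse embryo fibroblasts (MEFs), which are connective tissue cells taken from whole embryos, here at embryonic day 12.5. All clones were grown asynchronously in DMEM with 20% FBS at 37 ºC under 5% CO2. No genotype, treatment or time point separates them, so the comparisons below are between genes and between clones. The sources used here do not say whether the clones came from separate embryos, and with 1 library per clone a test measures how far these libraries differ, which may be technical.

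Proteins that leave the cell or sit in its membranes enter the ER through the Sec61 channel and are folded there by chaperones. When unfolded protein accumulates, 3 membrane sensors respond. Ern1 splices the Xbp1 transcript, Atf6 is cut to release a transcription factor, and Eif2ak3 phosphorylates the translation factor eIF2. Phosphorylated eIF2 slows protein synthesis while favouring translation of Atf4, and other kinases reach the same step when amino acids or haem are short, which is why the branch is called the integrated stress response. Fibroblasts secrete collagen in bulk and are known for a well-developed ER. Splicing of Xbp1, cleavage of Atf6 and phosphorylation cannot be read from counts per gene, and only transcript levels are given here.

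The promoter sequences known to carry these 2 kinds of response were looked for first, because they show which members share a regulatory sequence. The ER stress response element is CCAAT, 9 bases of any kind, then CCACG. RefSeq windows of 300 bases (250 before to 50 after the transcript start, build GRCm38.p6, both strands searched) were found for 33 of the 40 members. The element was in 8 of these 33 genes (24.2%), against 37 of 27025 genes with a window (0.137%). Of the 8708 genes with a window that were expressed in the MEFs, 14 held it (0.161%). Both backgrounds include the members, so 8 of those 14 are members. The element was searched because it is known from this response, so its share among the members is a description and not a test. All 9 matches are given from CCAAT to CCACG with both parts in capitals, each read 5′ to 3′ on the strand that carries the match.
Hspa5, chr2:34772025-34772043: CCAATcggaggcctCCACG
Hsp90b1, chr10:86705638-86705656: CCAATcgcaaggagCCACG
Hsp90b1, chr10:86705533-86705551: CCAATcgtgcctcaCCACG
Dnajc3, chr14:118937827-118937845: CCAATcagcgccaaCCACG
Creld2, chr15:88819520-88819538: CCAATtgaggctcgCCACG
Calr, chr8:84847075-84847093: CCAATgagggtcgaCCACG
Canx, chr11:50325800-50325818: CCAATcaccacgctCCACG
Pdia6, chr12:17266491-17266509: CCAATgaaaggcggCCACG
Syvn1, chr19:6046532-6046550: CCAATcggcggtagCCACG

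Chaperones and folding enzymes held 7 of the 8 genes with the element, and the other one was Syvn1, a ubiquitin ligase of ER-associated degradation. No match was present for 3 of the 5 sensors and membrane transcription factors and 5 of the 6 stress signalling genes, the ones with a window. The same held for 7 of the 8 amino acid genes and 2 of the 3 secretory route genes. Windows were found for 7 of the 9 chaperones and cochaperones, and members without a window were not searched. Every match lay upstream of the transcript start in RefSeq, between 44 and 212 bases before it by its first base along the gene, and only the match of Hspa5 fell inside the gene span of GENCODE M21, which starts earlier for this gene than the RefSeq transcript. Hsp90b1, which encodes the ER form of Hsp90, carried 2 matches in opposite orientation, and its upstream stretch at chr10:86705510-86705694 (minus strand, read along the gene, no GENCODE exon of the gene included, both matches in capitals) was printed to show their arrangement.
Hsp90b1: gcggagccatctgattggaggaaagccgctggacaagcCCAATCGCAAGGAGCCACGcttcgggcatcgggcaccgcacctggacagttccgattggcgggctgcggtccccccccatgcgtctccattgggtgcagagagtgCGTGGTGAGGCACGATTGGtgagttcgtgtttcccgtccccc
The short part CCACG alone was common. It was in 26 of the 33 members (78.8%), in 35.5% of all genes with a window and in 53.6% of the expressed ones. Each match of the long element contains one of the short part, so these counts overlap.

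The second element is the C/EBP-ATF response element through which Atf4 acts, searched as TGATGNAAN. It was in 5 of 33 members (15.2%), against 4.496% of all genes and 2.57% of expressed genes with a window. Asns (chr6:7693224-7693232) held TGATGAAAC, Chac1 (chr2:119351048-119351056) and Herpud1 (chr8:94386316-94386324) held TGATGCAAC, Trib3 (chr2:152344039-152344047) held TGATGTAAA, and Slc7a11 held TGATGCAAA at 2 places. The matches of Chac1 and Slc7a11 are printed within their upstream stretches, read along the gene with the matches in capitals, because Chac1 was among the members that differed most between clones and Slc7a11 was the lowest member per length. In the Chac1 stretch at chr2:119350992-119351228 (plus strand) the match is on the opposite strand, and in the Slc7a11 stretch at chr3:50443615-50443713 (minus strand) 1 match lies on each strand.
Chac1: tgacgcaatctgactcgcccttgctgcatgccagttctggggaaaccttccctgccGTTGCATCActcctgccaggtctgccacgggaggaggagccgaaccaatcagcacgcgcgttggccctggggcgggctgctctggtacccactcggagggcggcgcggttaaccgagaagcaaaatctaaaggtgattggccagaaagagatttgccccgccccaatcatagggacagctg
Slc7a11: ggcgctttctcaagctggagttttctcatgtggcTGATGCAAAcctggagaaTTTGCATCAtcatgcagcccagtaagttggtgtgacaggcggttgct
No member carried both elements in its window. These matches describe letters in a window, and no binding was measured in these libraries.

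Total counts were 25261357, 22594316 and 24791198 in clones 1, 2 and 3, so 1 count equals 0.0402, 0.0443 and 0.0396 counts per 1000000 (CPM) and the limit that a count of 0 leaves (3 counts, counting error only) is 0.121, 0.133 and 0.119 CPM. Library sizes were scaled by TMM before CPM were taken. The 9 fibroblast markers were all measured, with summed levels of 56986, 47428 and 45974 CPM, while the defining markers of epithelium (Epcam, Cdh1) and endothelium (Pecam1, Cdh5) had at most 15 counts in a clone, of 4 markers each only Krt18 and Kdr had 10 or more in every clone, and Hba-a1, Hba-a2 and Mzb1, markers of red cells and plasma cells, had 0. Markers of other cells and of growth were unequal between clones: the 10 macrophage markers summed to 378, 1798 and 313 CPM and the 6 proliferation markers to 368, 723 and 609 CPM. In bulk samples, fewer cells of a type and less RNA per cell cannot be told apart.

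The members were expressed at high levels. None had under 10 counts in any clone, and single counts ran from 257 counts of Ern1 in clone 1 to 62568 counts of Hsp90b1 in clone 3. Together they took 1.56%, 1.74% and 1.68% of all counts in clones 1, 2 and 3 (1.66 ± 0.0916%, SD, n = 3). Their median level was 46.1 CPM per kb of merged exons, against 5.46 for all expressed genes (1 CPM or more in every clone, 11343 genes with a length), and 38 of 40 lay above that background median, the exceptions being Ern1 and Slc7a11. Among all expressed genes, 4 members ranked in the highest 100 (Calr 29th, Pdia3 43rd, Hsp90b1 45th and Hspa5 61st) and 22 in the highest 1000. Hsp90b1, Calr, Pdia3, Hspa5 and Canx held 60.5 ± 0.108% of the members' counts (SD, n = 3).

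**Figure D1:**
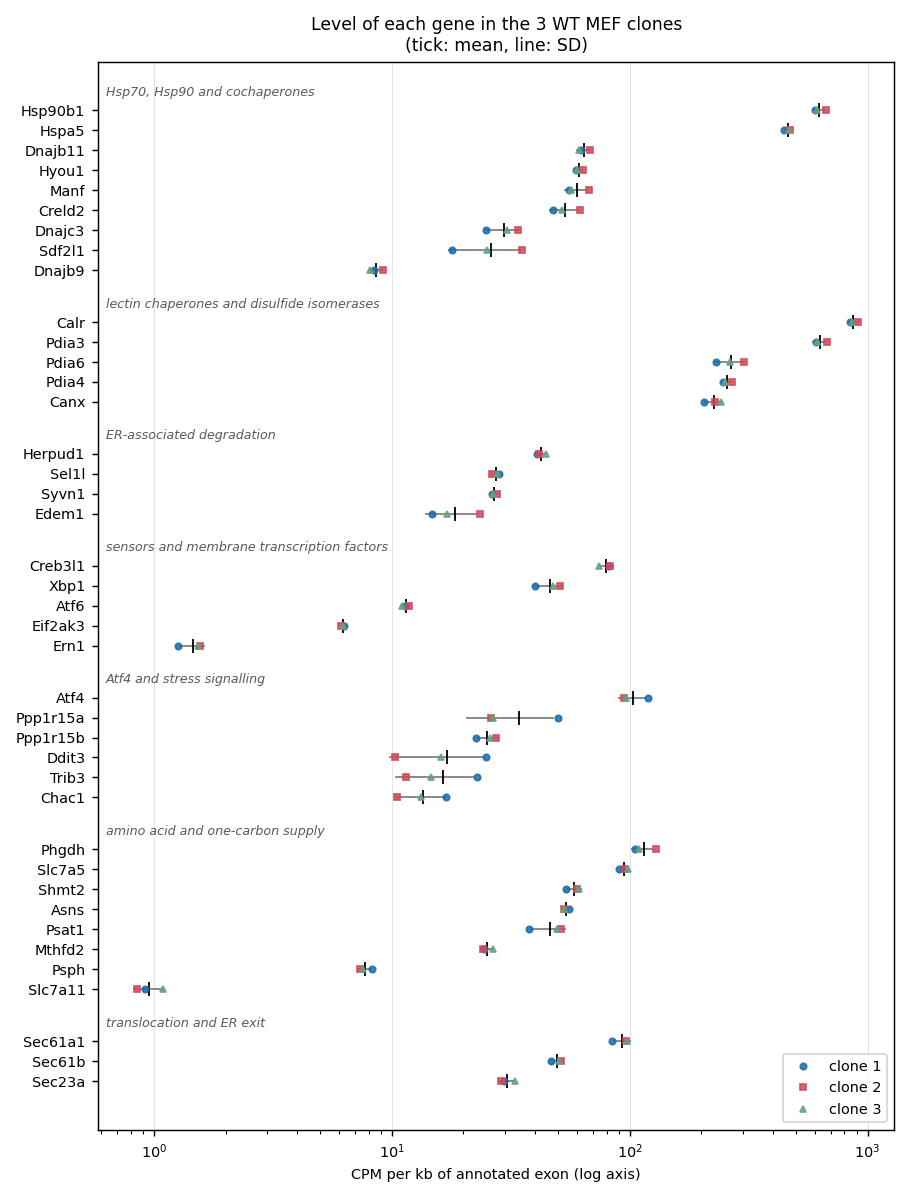
Level of each member in CPM per kb of merged exons (log axis), grouped by role, with 1 point per clone and a grey line for the mean ± SD. Calr is the highest member at 871 CPM per kb and Slc7a11 the lowest at 0.953, and for most genes the 3 clones lie close together.

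Hsp70 and Hsp90 chaperones and their helpers held 33.9 ± 0.159% of the members' counts (SD, n = 3). Hsp90b1 had 60312, 60604 and 62568 counts in clones 1, 2 and 3, a level of 628 ± 34.3 CPM per kb (SD, n = 3). Hspa5 (BiP), the Hsp70 of the ER and the usual readout of ER load, had 46880, 45028 and 50049 counts and 462 ± 14.1 CPM per kb. Both were far above their partners, and the order Hsp90b1 over Hspa5 held in every clone with ranges that did not overlap. The Hspa5 level per kb was 0.741, 0.708 and 0.763 of that of Hsp90b1 in the 3 clones.

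Next in level stood Dnajb11 at 64.0, Hyou1 at 61.2 and Manf at 60.1 CPM per kb, whose ranges over the clones overlapped. Dnajb11 is a J-domain partner of Hspa5, Hyou1 renews its nucleotide, and Manf binds it and can be secreted. Dnajc3, a J-domain protein known to bind unfolded clients, lay at 29.8 CPM per kb and Creld2, a secreted stress-induced protein, at 53.7. Sdf2l1, which forms a complex with Dnajb11, had 492, 880 and 703 counts, at 26.1 ± 8.71 CPM per kb (SD, n = 3). Dnajb9, a cochaperone that restrains Ern1, was the lowest of this role with 533, 526 and 519 counts and 8.54 CPM per kb. Of the 86-base stretches of its transcript with the longest coding sequence, 13.97% also occur in other genes.

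Lectin chaperones and disulfide isomerases held the largest share of the members' counts, 43.2 ± 0.560% (SD, n = 3). Calr, the soluble lectin that holds glycoproteins during folding, was the highest member per kb, with 60119, 59343 and 62428 counts and 871 ± 38.4 CPM per kb (SD, n = 3). Canx, its membrane-bound counterpart, was the lowest of the role, with 24033, 24111 and 28718 counts and 225 CPM per kb. The Calr level per kb was 3.88 ± 0.291 times that of Canx (SD, n = 3). Pdia3, the isomerase that works with both lectins, lay at 632 ± 40.2 CPM per kb, below Calr and not separable from Hsp90b1. Pdia6 and Pdia4, isomerases with broader client sets, lay at 266 and 256 CPM per kb with overlapping ranges.

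ER-associated degradation genes held 3.51 ± 0.0181% of the members' counts (SD, n = 3). Herpud1, which organises the degradation complex, was the highest with 2358, 2185 and 2625 counts and 42.3 CPM per kb. Sel1l and Syvn1, which form the core of that complex, lay at 27.4 and 26.9 CPM per kb and could not be separated in level. Edem1, which picks glycoproteins for disposal, was the lowest with 2363, 3412 and 2770 counts and 18.4 ± 4.52 CPM per kb (SD, n = 3).

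The sensors and membrane transcription factors spanned a wide range of levels, and every step in their order held in all 3 clones without overlap. Creb3l1, a membrane-bound factor known for driving collagen production in bone, was the highest with 5285, 4835 and 4888 counts and 79.5 ± 4.46 CPM per kb (SD, n = 3). Xbp1 followed with 3223, 3714 and 3909 counts and 46.1 ± 5.55 CPM per kb, then Atf6 with 2607, 2462 and 2586 counts and 11.4 ± 0.372. Eif2ak3 (PERK) had 946, 832 and 951 counts and 6.23 ± 0.0991 CPM per kb. Ern1 (IRE1 alpha) was far below, with 257, 289 and 316 counts and 1.45 ± 0.165 CPM per kb. Per kb, Atf6 was 7.92 ± 0.928 and Eif2ak3 4.33 ± 0.584 times the level of Ern1 (SD, n = 3).

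Atf4 led the stress signalling role with 6999, 5054 and 5750 counts and 104 ± 13.7 CPM per kb (SD, n = 3). The other 5 genes of the role were lower per kb. Ppp1r15a (GADD34), which recruits a phosphatase to eIF2 and so ends the response, lay at 34.2 ± 13.5 CPM per kb and its constitutive relative Ppp1r15b (CReP) at 25.2 ± 2.40. Ddit3 (CHOP), a transcription factor tied to cell death under prolonged stress, had 1057, 400 and 699 counts at 17.1 ± 7.29 CPM per kb. Trib3, a pseudokinase that dampens Atf4, had 1209, 548 and 788 counts at 16.3 ± 5.91. Chac1, which breaks down glutathione, had 689, 390 and 547 counts at 13.6 ± 3.20, the lowest mean of the role. The ranges of Ddit3, Trib3 and Chac1 over the clones overlapped. In each of these genes apart from Ppp1r15b, clone 1 had the most counts and clone 2 the fewest.

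Amino acid and one-carbon genes were spread over the widest range of any role. Phgdh, the first enzyme of serine synthesis, was the highest with 6516, 7214 and 6878 counts and 115 ± 12.4 CPM per kb (SD, n = 3). However, 80.6% of its 86-base stretches also occur in other genes, so its count is uncertain. Of these 23 genes, those sharing the most stretches are named as predicted genes, such as Gm7901 and Gm9347. The next enzyme, Psat1, lay at 46.2 ± 7.51 and the last, Psph, at 7.72 CPM per kb, with 22.5% of the Psph stretches shared, and in all 3 clones the levels were in the order Phgdh, Psat1, Psph, with no correction for shared reads. Slc7a5, which imports large neutral amino acids, lay at 94.7 ± 3.93, and Shmt2 and Mthfd2, which carry serine carbon into folate in mitochondria, at 58.5 and 25.1. Asns, which makes asparagine, lay at 53.8 ± 1.37. Slc7a11, the cystine importer, was the lowest of all 40 members with 318, 266 and 384 counts and 0.953 ± 0.126 CPM per kb, and the Slc7a5 level per kb was 100.3 ± 11.4 times that of Slc7a11 (SD, n = 3).

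On the secretory route, Sec61a1, the pore of the translocation channel, had 14126, 14667 and 16522 counts and 92.7 CPM per kb. Sec23a, part of the COPII coat that buds vesicles from the ER, had 3563, 3128 and 4041 counts and 30.4 CPM per kb, the lowest of this role. Sec61b, a small channel subunit, lay at 49.5 CPM per kb, but 79.1% of its stretches occur in other genes. Levels per kb also rest on the length used. With the length of 1 transcript per gene, the one with the longest coding sequence, 11 of 40 members moved up by 1.5 times or more: Sec61b to 146, Psph to 19.3, Sec61a1 to 197, Ddit3 to 32.9 (then above Ppp1r15b), Pdia6 to 458, Mthfd2 to 41.9, Psat1 to 75.0, Hyou1 to 98.6, Manf to 94.2, Xbp1 to 70.3 and Slc7a11 to 1.44 CPM per kb. For 25 of the 40 members no 86-base stretch was shared with another gene, and apart from Phgdh, Sec61b, Psph and Dnajb9, over 10% was shared only for Sec61a1 (13.0%) and Ppp1r15b (10.2%).

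The clones were then compared gene by gene. A gene was called as differing when a Pearson chi-square test of its 3 counts against the TMM library sizes had a Benjamini-Hochberg adjusted p under 0.05 over the 12218 genes that reached 10 counts in each library. At this depth the test detects small differences, and 62.5% of tested genes were called. Of the members, 34 of 40 were called. Call rates depend on counts, and among genes with a mean of at least 1000 counts 82.2% were called, against 28 of the 31 members at that depth. The members not called were Dnajb9, Syvn1, Atf6, Eif2ak3, Asns and Psph. Leaving out clone 1, 2 or 3 left 25, 26 and 30 of 40 members called, beside 31.7%, 45.3% and 53.0% of all genes tested.

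The size of the differences was small for most members. The median ratio of the highest to the lowest clone in CPM was 1.14 for the members, 1.24 for all tested genes and 1.17 for genes with a mean of at least 1000 counts. Ratios stayed under 1.2 in 23 members (in 41.8% of tested genes) and reached 1.5 in 6 members (in 22.3% of tested genes): Ddit3, Trib3, Sdf2l1, Ppp1r15a, Chac1 and Edem1. Called differences of 2-fold or more were found in 2 of 40 members, Ddit3 and Trib3, with 7.93% of all tested genes as background. Among genes with a mean of at least 1000 counts this background was 2.03%, and 0 of the 31 members at that depth reached 2-fold, with 28 called by the same chi-square test. Trib3 stood at 2.002 and fell under 2 when total counts replaced the TMM sizes, while Sdf2l1 at 1.97 lay just outside. Without clone 1 or without clone 2, 0 of 40 members were called at 2-fold by the chi-square test (25 and 26 were called at any size), beside 3.94% and 1.64% of all genes, and without clone 3 both were, beside 6.78%.

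**Figure D2:**
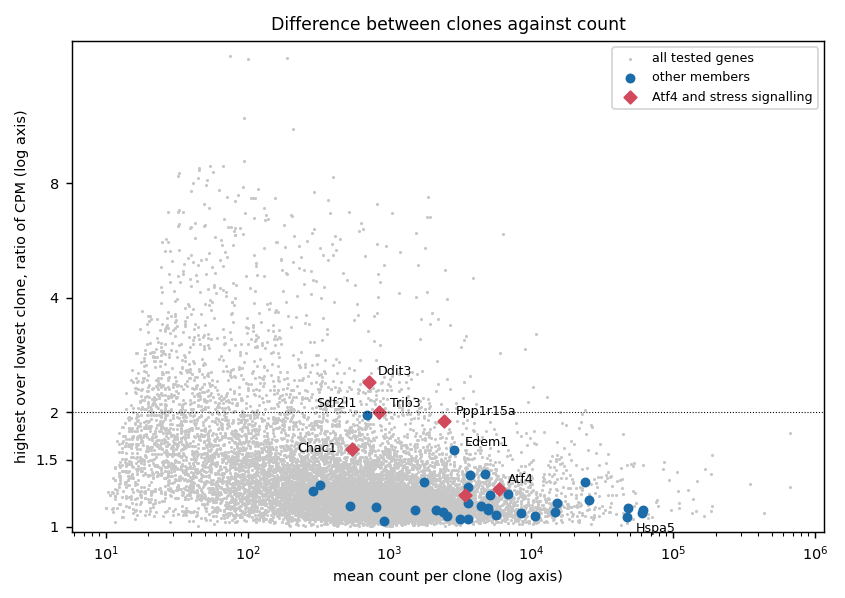
Highest over lowest clone in CPM (log axis) against the mean count (log axis) for all tested genes (grey) and the members (coloured). Of the members, 23 lie under a ratio of 1.2, and Ddit3 (2.40) and Trib3 (2.002) are the 2 at or above the 2-fold line.

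Which clone was highest differed by role. Over all tested genes, 23.8% were called and highest in clone 1, 23.5% in clone 2 and 15.3% in clone 3. Among the 4095 genes with a mean of at least 1000 counts, 1233, 1219 and 916 were called and highest in clones 1, 2 and 3. For the members the counts were 6, 20 and 8 of 40. Clone 1 was the lowest clone for 23 of the 34 called members, and clone 2 for 9. Over all 7642 called genes, clone 1 was the lowest for 3306 and clone 2 for 2597. For the 3368 called genes with a mean of at least 1000 counts, these numbers were 1551 and 1117.

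Folding genes were mostly highest in clone 2. Of the 14 chaperones, cochaperones, lectins and isomerases, 13 had their highest level in clone 2, 12 of them called, and 12 had their lowest in clone 1. The exception was Canx, which was highest in clone 3. The differences were small, with ratios from 1.06 to 1.97 and 9 of 14 under 1.2, and the median distance of log2(CPM + 1) from its average over the clones was -0.06, 0.10 and -0.03 in clones 1, 2 and 3 for the 9 chaperones and cochaperones and -0.06, 0.07 and -0.02 for the 5 lectins and isomerases. The medians over all genes were -0.0071, 0.00078 and 0.0066. Of all 12218 tested genes, 4298 were highest in clone 2 and 4817 were lowest in clone 1. Among the 4095 with a mean of at least 1000 counts, these numbers were 1439 and 1815. Without clone 2 the gap between the medians of the remaining clones was 0.0329 for the chaperones and 0.0335 for the lectins and isomerases. With total counts in place of TMM sizes Hspa5 was highest in clone 3 and the other 12 remained highest in clone 2.

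Sdf2l1 had the largest difference of the folding genes, with 19.8, 39.0 and 27.8 CPM in clones 1, 2 and 3, a ratio of 1.97 (chi-square test, adjusted p = 5.6e-33). Hspa5 differed by a ratio of only 1.06, at 1887, 1997 and 1982 CPM, and its difference between clones 2 and 3 did not pass the test (adjusted p = 0.401 without clone 1). Pdia6 (866, 1134 and 991 CPM, ratio 1.31), Dnajc3 (1.37), Creld2 (1.31) and Manf (1.21) lay in between. Hyou1, Dnajb11, Manf, Pdia3 and Pdia4 lost their call when clone 2 was left out (adjusted p from 0.0881 to 0.562). Clone 2 was also the library with the most macrophage and proliferation marker RNA: all 10 macrophage markers and all 6 proliferation markers were highest there, at summed levels of 1798 and 723 CPM. The proliferation markers were also lowest in clone 1, at 368 CPM. The part of these cells and of growth in the folding gene values was not tested.

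The 3 called degradation genes were each highest in a different clone, and the 3 called sensor genes were all highest in clone 2. Edem1 was highest in clone 2 at 95.1, 151 and 110 CPM, a ratio of 1.59, while Sel1l and Herpud1 differed by 1.07 and 1.10 and were highest in clones 1 and 3, Sel1l in clone 3 with total counts. Sel1l lost its call without clone 2 (adjusted p = 0.643) and Herpud1 without clone 3 (adjusted p = 0.580). Xbp1 had 130, 165 and 155 CPM, a ratio of 1.27. Ern1 had 10.3, 12.8 and 12.5 CPM (ratio 1.24, adjusted p = 0.0396, lost without a filter on low counts at 0.0501 and without clone 1 at 0.863). Creb3l1 had 213, 214 and 194 CPM, a ratio of 1.11 between clones 2 and 3, and its call was lost without clone 3 (adjusted p = 0.761). Atf6 (ratio 1.07, adjusted p = 0.103) and Eif2ak3 (1.03, adjusted p = 0.830) did not pass the test, and Eif2ak3 had the smallest ratio of all 40 members.

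**Figure D3:**
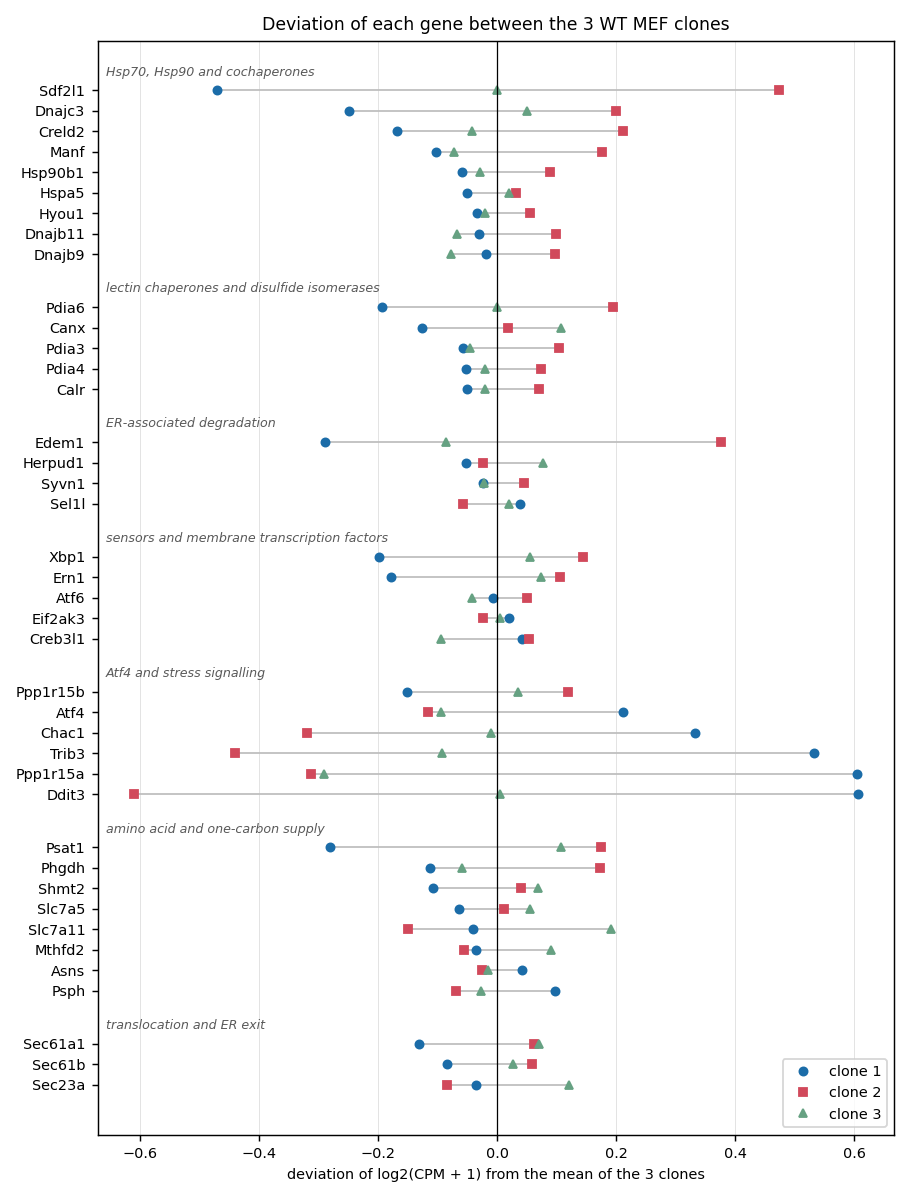
Distance of log2(CPM + 1) from its average over the 3 clones for each member, grouped by role, with 1 point per clone. Clone 1 stands to the right for Ddit3, Trib3, Chac1, Ppp1r15a and Atf4, clone 2 to the right for Sdf2l1 and Edem1, and most other points lie near 0.

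Stress signalling genes had the largest differences between clones and the opposite order. Of the 6 genes of this role all were called, 5 were highest in clone 1 and lowest in clone 2, and the order was kept under each scaling of the libraries. Median deviations of log2(CPM + 1) were 0.43, -0.32 and -0.05 in clones 1, 2 and 3. Among the 34 members outside this role only 1 called member, Sel1l, was highest in clone 1, and none was with total counts. Without clone 1 the gap between the medians of the remaining clones was 0.165, and without clone 2 it was 0.470. The role took 4.25% (95% Wilson interval 4.19 to 4.32), 2.95% (2.90 to 3.004) and 3.21% (3.16 to 3.27) of the members' counts in the 3 clones, the intervals covering counting error only.

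Ddit3 had 42.5, 17.7 and 27.7 CPM in clones 1, 2 and 3, a ratio of 2.40 between clones 1 and 2 (chi-square test, adjusted p = 9.6e-54). Trib3 had 48.7, 24.3 and 31.2 CPM (ratio 2.002, adjusted p = 1.9e-46) and Chac1 27.7, 17.3 and 21.7 CPM (ratio 1.60, adjusted p = 1.2e-12). These 3 genes had the same graded order, with clone 3 between the others. Clone 2 was below clone 3 by a ratio of 0.641 for Ddit3, 0.779 for Trib3 and 0.799 for Chac1, and each passed the test between these clones alone (adjusted p = 1.3e-11, 5.0e-05 and 0.00335).

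Ppp1r15a and Atf4 stood apart from these in shape, being high in clone 1 and alike in the others. Ppp1r15a had 146, 77.0 and 78.1 CPM, with a ratio of 1.90 between clones 1 and 2 and 0.986 between clones 2 and 3. Atf4 had 282, 224 and 228 CPM, with ratios of 1.26 and 0.985. Without clone 1 neither passed the test (adjusted p = 0.789 for Ppp1r15a and 0.591 for Atf4). Relative to Atf4, the level of Ddit3 per kb was 0.208, 0.109 and 0.167 and that of Trib3 was 0.192, 0.1203 and 0.152, so these targets differed between clones by more than the Atf4 transcript did.

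Ppp1r15b went the other way, at 127, 153 and 144 CPM, highest in clone 2 and lowest in clone 1. Both proteins serve the same phosphatase. Ppp1r15a took 53.6% of their joint raw counts in clone 1 (95% Wilson interval 52.4 to 54.8). Its share was 33.5% in clone 2 (32.2 to 34.8) and 35.1% in clone 3 (33.9 to 36.4). These shares are not corrected for length, and Ppp1r15b has more exon bases (5594 against 2937). Per kb of merged exons, the Ppp1r15a level was 2.20, 0.959 and 1.03 times that of Ppp1r15b in clones 1, 2 and 3. Beside this role, clone 1 had the lowest proliferation sum (368 CPM, against 723 and 609) and the highest fibroblast sum (56986 CPM, against 47428 and 45974). Most of the fibroblast sum came from Col1a1 and Col1a2, with means of 27713 and 14380 CPM. Of the 9 fibroblast markers, 4 were highest in clone 1 and 5 in clone 2. Their median deviations were 0.003, 0.07 and -0.06 in clones 1, 2 and 3. Clone 2, where 5 of the 6 stress signalling genes were lowest, had the highest macrophage sum (1798 CPM, against 378 and 313). The part of any of these in the stress signalling values was not tested.

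Of the 8 amino acid supply genes, 6 were called and none of these was highest in clone 1, with 2 highest in clone 2 (Phgdh, Psat1) and 4 in clone 3 (Shmt2, Mthfd2, Slc7a11, Slc7a5). Psat1 differed most, at 160, 220 and 210 CPM with a ratio of 1.37, and clone 1 carried it: without clone 1 it did not pass the test (adjusted p = 0.0563). Asns, whose window holds the C/EBP-ATF element, had 151, 144 and 146 CPM (ratio 1.05, adjusted p = 0.139), and Slc7a11, which holds 2, had 12.8, 11.8 and 15.2 CPM (ratio 1.29), a call lost without clone 3 (adjusted p = 0.422). Trib3 and Chac1, which also hold it, differed by 2.002 and 1.60, and Herpud1 by 1.10. Shmt2 and Slc7a5 lost their calls without clone 1 (adjusted p = 0.5004 and 0.119), Mthfd2 without clone 3 (0.738) and Phgdh without clone 2 (0.0513), while Psph passed without clone 3 (0.0365). Sec61a1, Sec61b and Sec23a differed by ratios of 1.10 to 1.15, and all were called. Sec61a1 and Sec61b lost their calls without clone 1 (adjusted p = 0.759 and 0.693), Sec61b also without clone 2 (0.0600) and Sec23a without clone 3 (0.254).

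Other genes of the same pathways, listed by function, were examined next to see how far these patterns extended. Their lists were also drawn up with earlier results of these data known, so they are not an independent check. Of the 85 genes tested across the 6 lists 70 were called by the chi-square test, and 0 of these reached 2-fold. The background over all tested genes was 62.5% called and 7.93% at 2-fold, and 82.2% and 2.03% among genes with a mean of at least 1000 counts. The highest clone of a called gene is to be read against 23.8%, 23.5% and 15.3% of tested genes for clones 1, 2 and 3. Among the 4095 genes with a mean of at least 1000 counts, the numbers were 1233, 1219 and 916. Of 14 other ER folding genes 12 were called, 8 of them highest in clone 2, 2 in clone 1 and 2 in clone 3. P4hb, the isomerase that is also a subunit of collagen prolyl hydroxylase, was the highest of them with 52524, 54866 and 58267 counts (ratio 1.15, highest in clone 2). Ero1lb, an oxidase that recharges isomerases, had the largest ratio, 1.53, with 111, 154 and 141 counts. Of 14 other translocation and ER exit genes 10 were called, again 8 highest in clone 2. Ssr3, of the translocon-associated complex, had the highest CPM, with 15280, 15623 and 17973 counts, and Spcs3, of the signal peptidase, the largest ratio at 1.45.

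Other degradation and unfolded protein response genes were split, with 13 of 14 tested called, 6 highest in clone 1, 5 in clone 2 and 2 in clone 3. Vcp, the ATPase that pulls proteins out of the ER, was the highest at 883 CPM with a ratio of 1.03, and Mbtps2, a protease that cuts Atf6, had the largest ratio, 1.47. Derl3 had only 9, 6 and 8 counts and was not tested.

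Of 15 other integrated stress response genes tested 12 were called, of which 6 were highest in clone 1, 2 in clone 2 and 4 in clone 3. Their median deviations were 0.10, -0.12 and 0.02 in clones 1, 2 and 3, with the same clones at the ends as for the stress signalling members. Atf3, a transcription factor induced with Ddit3, had 362, 204 and 190 counts (ratio 1.94), and Atf5, a relative of Atf4, had 5550, 3862 and 4575 (ratio 1.30), both highest in clone 1. Fgf21, a secreted hormone, had 22, 7 and 16 counts and was not tested. The other kinases of eIF2 were measured as well, and Eif2ak1 (ratio 1.09, adjusted p = 0.215) and Eif2ak4 (1.05, adjusted p = 0.570) did not pass the test, while Eif2ak2, which senses double-stranded RNA, was highest in clone 1 at 1.67.

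Of 16 other amino acid and one-carbon genes 15 were called, 8 highest in clone 1, 3 in clone 2 and 4 in clone 3. Their median deviations were 0.07, -0.06 and 0.05 in clones 1, 2 and 3, and clone 3 was the highest with total counts. Slc3a2, the partner chain of Slc7a5 and Slc7a11, had the highest CPM of these with a ratio of 1.04, and Shmt1 the largest ratio, 1.48. The 12 aminoacyl-tRNA synthetases, which charge tRNAs, had 8 called, 4 highest in clone 1, 4 in clone 3 and none in clone 2, with medians of 0.03, -0.05 and -0.01, and clone 3 was again the highest with total counts. Clone 2 had the lowest median of both lists under each scaling. Aars had 10752, 7476 and 8939 counts (ratio 1.31) and Sars 6893, 4680 and 5452 (1.34), both highest in clone 1.

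**Figure D4:**
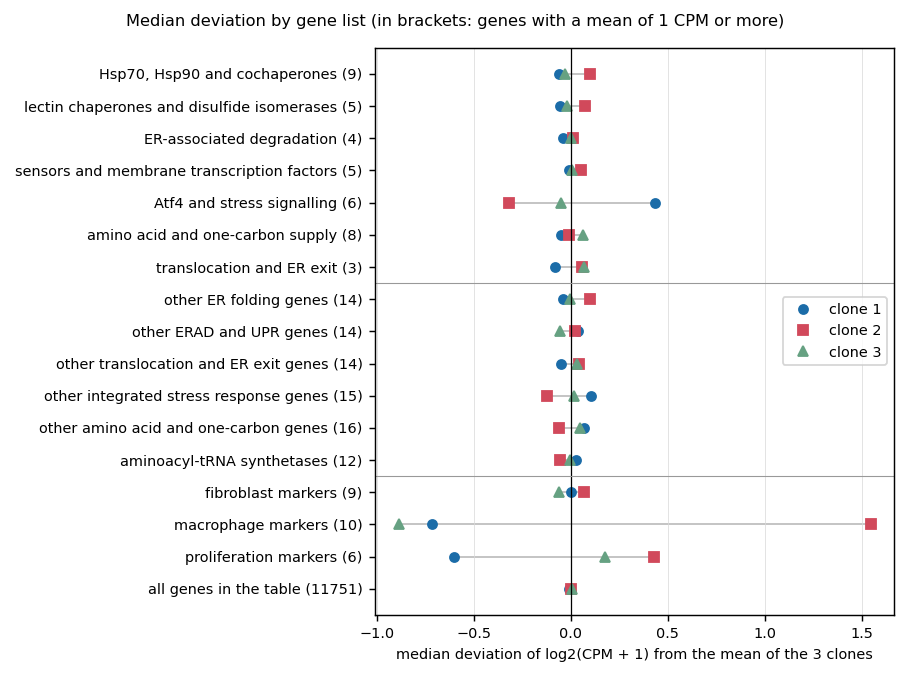
Median distance of log2(CPM + 1) from its average over the 3 clones for each role, each list of other pathway genes and the marker lists, with 1 point per clone. The stress signalling role runs from 0.43 in clone 1 to -0.32 in clone 2, the folding roles lie between -0.06 and 0.10, and the macrophage markers reach 1.55 in clone 2.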

How the data were processed

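RNA from 3 WT MEF clones was measured by RNA-seq, 1 library per clone, with total counts of 25261357, 22594316 and 24791198. The authors aligned single-end reads of 86 nt with TopHat (version 2.0.0), Samtools (0.1.16) and Bowtie (0.12.7), with up to 5 multi-hits and 2 mismatches per read, and counted them per gene with HTSeq. They deposited raw counts per gene with no normalization. The paper's methods name mm10 genes and the submitters' processing notes name mm9. The HTSeq version, annotation and strand setting are not given in the sources used here, so reads of copies and of genes on opposite strands may be split or shared. Exons of other genes on the opposite strand covered 11.4% of Ppp1r15b, 10.4% of Psph and 10.3% of Hsp90b1 exon bases, the largest shares among the members.

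From the counts, CPM were computed with TMM factors of 0.984, 0.998 and 1.02 (edgeR 4.0.16, R 4.3.3). Genes were matched to GENCODE M21 by symbol or synonym (99.7% of rows), and levels between genes were compared as CPM per kb of merged exons. Genes were called apart in level where every clone of the first lay above every clone of the second. Clones were compared by Pearson's chi-square (2 degrees of freedom) for genes that reached 10 counts in each library. Benjamini-Hochberg adjustment was applied at 0.05 (scipy 1.17.1, Python 3.11.15). The same test was run on simulated counts that held only counting noise and set 2-fold changes. Those counts had no spread between libraries, so that run does not give the rate of false calls in these data. The test compares libraries, not conditions, and leaves out any spread between cultures of a clone. All pairs of libraries differed beyond counting noise (31.7% to 53.0% of tested genes), so none was a repeat deposit. Role and list medians were taken over genes averaging 1 CPM or more. The alternatives were DESeq2 1.42.0 size factors, total counts, other filters on low values, a likelihood ratio test, a pseudocount of 0.25, another gene length and leaving out each clone.

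Stretches of 86 bases were taken from 1 transcript per member, the one with the longest coding sequence. They were aligned with bwa 0.7.19 to all GENCODE transcripts with up to 2 mismatches. Promoter windows came from RefSeq (GRCm38.p6), and a motif's share is that of genes with at least 1 match in any window. Protein sequences were not used here. The members, roles, pathway lists and markers were chosen with earlier results of these data known. For each role, counts were given for the members that are highest or lowest per length, differ most between clones or sense stress. From each list of other genes, those with the highest CPM and the largest ratio were named, and the eIF2 kinases, Derl3 and Fgf21 were named in addition.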

Additional observations from a re-analysis of the deposited data

How the results depend on the processing

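With DESeq2 size factors, the likelihood ratio test or a filter on mean CPM, 34 of 40 members were called as differing and 2 by 2-fold or more, as with the chosen settings, and without a filter on low counts 33 and 2. With total counts the 2-fold count was 1, Trib3 falling just under the limit, and the gap between the highest and lowest clone median of the degradation genes was 0.0875 (0.0492 with TMM, log2 scale). With the length of only 1 transcript per gene, that of the longest coding sequence, the median level of the members was 62.0 CPM per kb (46.1 with merged exons), since those lengths are shorter. Leaving out 1 clone gave 25 to 30 called members, 0 to 2 at 2-fold or more, a median level of 43.7 to 50.2 CPM per kb and a share of all counts of 1.62% to 1.71%. The gaps between clone medians then ranged from 0.0329 to 0.166 for chaperones and cochaperones, 0.0335 to 0.144 for lectins and isomerases, 0.00527 to 0.0678 for degradation genes, 0.0135 to 0.0893 for sensors, 0.165 to 0.784 for stress signalling, 0.0277 to 0.125 for amino acid genes and 0.00815 to 0.159 for the secretory route. With 2 libraries left, which clones remain sets these gaps. A pseudocount of 0.25 or no filter on low values moved no role's gap by more than the spread between clones. The order of clone medians changed for degradation genes, where clone 3 passed clone 2 with total counts or without clone 1, and for sensors, where clone 1 passed clone 3 without clone 2.

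With 1 library per clone, a clone, its culture and its library cannot be told apart. Depth limits few members, the lowest being Ern1 with 257 counts in clone 1. Shared sequence limits the counts of Phgdh and Sec61b. No paired analysis was possible because all libraries are of 1 group.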
